A study of Mus musculus with 12 samples.

Results

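Microglia from the cortex of rh Bri2 BRICHOS R221E-treated wild-type (WT) mice were compared with those of vehicle (veh)-treated WT mice, which gives the effect of the treatment in brains without amyloid plaques. This comparison uses 6 of the 12 RNA-sequencing libraries of the series, 3 from rh Bri2 BRICHOS R221E-treated and 3 from veh-treated WT mice, each from 1 mouse and assigned by its label. The WT mice were C57BL/6J males that received 24 i.v. injections over 12 weeks from the age of 9 months, either of PBS (veh) or of rh Bri2 BRICHOS R221E at 10 mg/kg, and were then kept for 4 weeks without treatment. The other 6 libraries are from *App* NL-G-F mice (3 veh-treated and 3 treated in the same way), which carry a humanised *App* gene with the Swedish, Iberian and Arctic mutations. Their values are given only where the 2 strains are set side by side, but they also enter the fit from which the spread is estimated. All 12 libraries were made from CD11b-positive cells that magnetic beads took from papain-digested cortex, and the sequenced mRNA is that of whatever cells and debris the beads retained.

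Bri2, the product of *Itm2b*, is a membrane protein whose BRICHOS domain is a chaperone that keeps amyloid-prone peptides from assembling. The R221E variant is produced as a recombinant human (rh) protein in its monomeric form. Microglia are the resident macrophages of the brain parenchyma and take up debris, present antigen and respond to interferon and to microbial products through families of receptors. CD11b, an integrin chain, also marks macrophages at the brain's borders, monocytes, neutrophils, natural killer cells and some dendritic cells, while ependymal and choroid plexus cells line the ventricles and reach an isolate with the tissue that is dissected.

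The libraries of the WT mice held 12433402 to 16188832 counts, and 15425 of the 55487 listed genes passed the filter on low counts. Levels are given as CPM, counts scaled to an equal library total after TMM normalisation, where 3 counts correspond to 0.169 to 0.224 CPM. The microglial label held in every library. *P2ry12* (2629, 2732 and 2864 CPM in veh- and 2483, 2716 and 2526 CPM in rh Bri2 BRICHOS R221E-treated mice) and *Aif1*, which encodes Iba1 (224, 249 and 243 and 208, 246 and 245 CPM), were among the detected microglial genes, and all 20 listed homeostatic genes were tested. Markers of other cells took 2.77%, 2.88% and 2.60% of the counts in veh-treated and 3.48%, 2.49% and 2.59% in treated mice. The oligodendrocyte list alone took 0.469% to 1.87%. The third veh-treated and the first rh Bri2 BRICHOS R221E-treated mouse stood apart from the rest of their groups in neutrophil transcripts, and the third veh-treated mouse also in choroid plexus transcripts. The third treated mouse had the highest ependymal, choroid plexus and oligodendrocyte precursor levels and the lowest oligodendrocyte level of the 6. Replicate libraries differed by more than counting noise, as their chi-square statistics over genes, divided by the degrees of freedom, were 7.91 to 31.0. A bulk library cannot tell fewer cells of a type from less RNA per cell.

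At an unadjusted p-value under 0.05, with no minimum fold change, 1010 genes were upregulated (6.55% of those tested) and 745 downregulated (4.83%). No gene passed at an adjusted p-value under 0.05 (0% of those tested) and the lowest adjusted p-value was 0.0791, with edgeR's quasi-likelihood test and Benjamini-Hochberg adjustment. DESeq2's Wald test gave 80 genes at the adjusted threshold with all 12 libraries in the fit and 134 with the 6 WT libraries. Single genes are reported here at the unadjusted threshold. Leading ones are mostly given with the value of every mouse, the log2 fold change ± its SE and the adjusted p-value of edgeR. The SE and p-value compare 3 mice per group but take their spread from all 12 libraries. Upregulated genes had a median log2 fold change of 0.80 and downregulated genes of -0.19. With a log2 fold change of at least 1 in either direction as well, the cutoff that the methods of the study name, 376 genes were upregulated (2.44%) and 16 downregulated (0.104%). With upper-quartile scaling in place of TMM, 1241 genes were upregulated and 347 downregulated, which moved the share of upregulated genes among the calls from 57.5% to 78.1% while the median of all genes moved by 0.035 on the log2 scale. The 3 treated mice lay above all 3 veh-treated mice in 1289 genes (8.36%) and below them in 1418 genes (9.19%).

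The direction of the calls depended on how strongly a gene was expressed in the isolate. Of genes under 0.3 CPM per kb of exon, 155 of 1486 were upregulated and 10 downregulated. Between 0.3 and 3 CPM per kb, 542 of 5252 were up- and 77 downregulated. From 3 to 30 CPM per kb, 263 of 7361 were up- and 543 downregulated, and at 30 CPM per kb or more, 49 of 1317 were up- and 115 downregulated. Upregulated genes thus made up 93.9%, 87.6%, 32.6% and 29.9% of the calls in these 4 classes, whose limits were chosen after the values were seen. A gene near the detection limit can pass the filter on low counts through the treated mice alone, which favours upregulated calls in the lowest class. The median log2 fold change of the lowest class was 0.36 in WT mice and -0.26 in *App* NL-G-F mice.

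**Figure D1:**
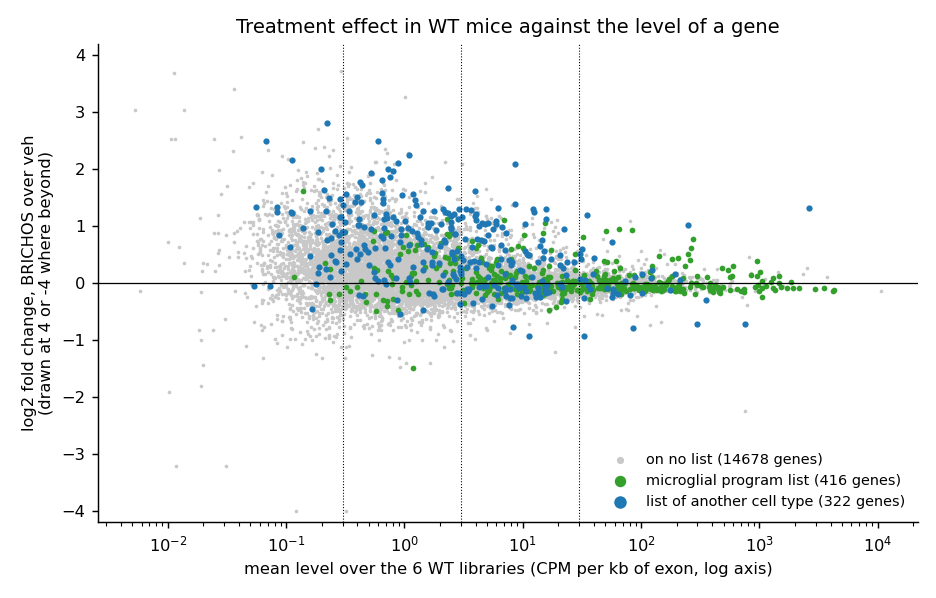
Each point is 1 of the tested genes of the WT mice, with its mean level in CPM per kb of exon on the log axis and its log2 fold change of rh Bri2 BRICHOS R221E over veh on the vertical axis; green points belong to the microglial lists, blue points to lists of other cell types, and dotted lines mark 0.3, 3 and 30 CPM per kb. Blue points lie mostly above 0, and green points lie close to 0 at high levels.

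To separate microglial programs from other transcripts, 15 lists of genes that microglia use and 17 lists of markers of other cell types were described. The list members named beyond the leading genes of each list were chosen after their values were seen. Of 322 tested markers of other cells, 105 were upregulated (32.6%, beside 6.55% of all genes) and 2 downregulated, with a median log2 fold change of 0.51. Of 421 tested genes of the microglial lists, 46 were upregulated (10.9%) and 29 downregulated (6.89%, beside 4.83% of all genes), with a median of -0.01. Without the third treated mouse 62 markers of other cells and 28 genes of the microglial lists were upregulated, the lowest counts on leaving out 1 of the 6 mice. Most calls fell on neither kind of list, with 860 up- and 714 downregulated genes among 14687.

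**Figure D2:**
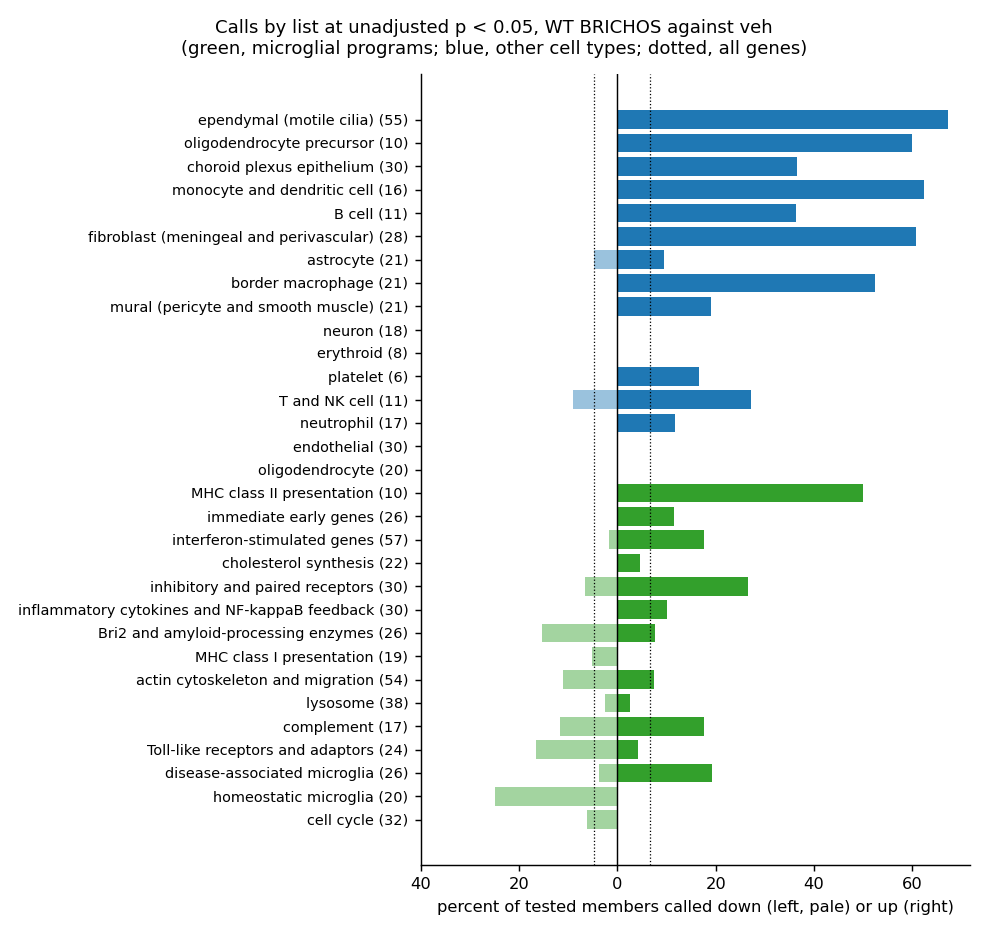
Bars give the percent of a list's tested members (their number is in brackets) that were upregulated (right) or downregulated (left, pale) in rh Bri2 BRICHOS R221E- against veh-treated WT mice; dotted lines are the 6.55% and 4.83% of all tested genes. Ependymal, monocyte and dendritic cell, fibroblast, oligodendrocyte precursor and border macrophage markers extend farthest to the right, and homeostatic microglial genes farthest to the left.

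The gene with the lowest p-value was *Ide*, which encodes insulin-degrading enzyme, a protease that also degrades amyloid-β. *Ide* was at 46.2, 49.995 and 47.5 CPM in veh-treated and at 65.8, 68.6 and 83.9 CPM in treated mice (log2 fold change 0.60 ± 0.081, adjusted p = 0.0791). All 3 treated mice lay above all 3 veh-treated mice, and the call held in each of the 14 other settings of the analysis. With the treatment of *App* NL-G-F mice *Ide* changed by -0.068 (adjusted p = 0.822), and the difference between the strains was 0.67 (adjusted p = 0.134). *Ide* lies at chr19:37268743-37337852 of GRCm38, and another annotated gene overlaps it on the same strand.

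Among the other leading genes *Iqgap1*, a scaffold of the actin cytoskeleton, rose from 63.8, 66.4 and 66.9 to 83.4, 85.4 and 85.9 CPM (0.37 ± 0.065, adjusted p = 0.164), with little spread within either group. *Itsn1*, an endocytic scaffold, rose from 39.1, 35.8 and 40.2 to 55.3, 55.1 and 49.2 CPM (adjusted p = 0.159). *Bmp2*, a secreted ligand of the TGF-β family, rose from 9.93, 7.65 and 8.12 to 15.999, 17.9 and 17.2 CPM (0.99 ± 0.16, adjusted p = 0.133). *Gpx3*, a secreted glutathione peroxidase, rose from 9.72, 9.90 and 11.3 to 16.5, 19.2 and 19.4 CPM (adjusted p = 0.159). These 4 genes did not overlap between the groups.

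Other genes rose from levels close to the detection limit. *Slc26a7*, an anion transporter, was at 0.342, 0.415 and 0.820 CPM and rose to 2.96, 3.21 and 2.98 CPM. *Grap2*, an adaptor of T cell and myeloid signalling, was at 0.685, 0.830 and 0.820 CPM and rose to 2.08, 2.37 and 2.40 CPM. *Fam71a* was at 0.0685, 0.534 and 0.671 CPM, in the first veh-treated mouse under the level of 3 counts, and rose to 5.42, 3.10 and 3.89 CPM. Stability was counted for 112 genes that passed the threshold and were chosen by fixed rules, in part for a low p-value in these data. Of these, 73 passed it in every alternative that tested them and none changed direction. That choice favours stable calls, and further genes named in the text were not counted.

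**Figure D3:**
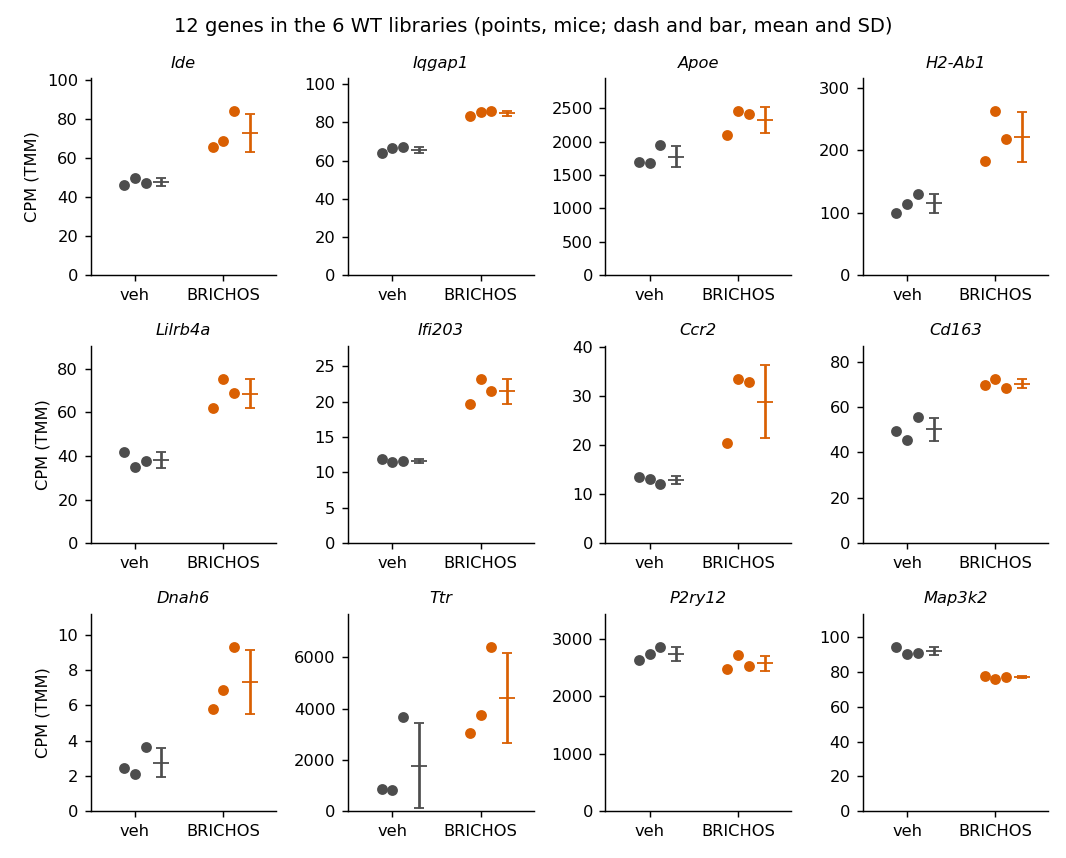
Points are the CPM of single WT mice, and the dash and bar to their right are the mean and SD of 3 mice, for 12 genes; the vertical axes start at 0. *Ide*, *Iqgap1*, *Apoe*, *H2-Ab1*, *Lilrb4a*, *Ifi203*, *Ccr2*, *Cd163* and *Dnah6* are higher in all 3 treated mice, *Ttr* and *P2ry12* overlap, and *Map3k2* is lower in all 3 treated mice.

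Homeostatic microglial genes were slightly lower after treatment. Of 20 tested members, 19 lay below 0 with a median log2 fold change of -0.12, and *Tgfbr1*, *Mertk*, *Adgrg1*, *Slco2b1* and *Cx3cr1* were downregulated. These 5 were 25.0% of the list, beside 4.83% of all genes. Genes of at least 100 CPM were downregulated in 3.95% (shortest quintile of exon length) to 19.5% (longest) of cases. The median log2 fold changes of these 2 quintiles were -0.006 and -0.084. *Tgfbr1*, the receptor through which TGF-β maintains microglial identity, fell from 1558, 1633 and 1635 to 1413, 1410.3 and 1447 CPM (-0.18 ± 0.059, adjusted p = 0.305). *Mertk*, a receptor for apoptotic cells, fell from 657, 697 and 667 to 635, 577 and 617 CPM (-0.14 ± 0.054, adjusted p = 0.361). *P2ry12* and *P2ry13*, receptors for extracellular nucleotides, did not pass (log2 fold changes -0.091 ± 0.059 and -0.090 ± 0.056). The summed level of the list was 42328.6 to 46224.7 CPM in veh-treated and 40133.4 to 42145.1 CPM in treated mice. With upper-quartile scaling the median was -0.08 and only *Tgfbr1* remained, and 8 members were downregulated without the first veh-treated mouse, 1 without the second, 2 without the third veh-treated or the third treated mouse and 3 without the first treated mouse. CPM are shares of a library, and the markers of other cells that rose in the same mice are given further on. All listed markers of other cells together took 2.60% to 2.88% of the counts in veh-treated mice. In the treated mice they took 3.48%, 2.49% and 2.59%. The part of these markers in the lower homeostatic levels was not tested.

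Among genes of disease-associated microglia, the state described around amyloid plaques, 5 of 26 were upregulated (19.2%, beside 6.55% of all genes). The median was -0.07, and 1 was downregulated (3.85%, beside 4.83%). *Apoe*, a lipid carrier, rose from 1698, 1673 and 1955 to 2101, 2454 and 2411 CPM (0.39 ± 0.096, adjusted p = 0.239). *Axl*, a receptor for apoptotic cells, rose from 66.1, 65.4 and 74.2 to 74.6, 80.99 and 86.7 CPM (0.24 ± 0.078, adjusted p = 0.299). *Lyz2*, a lysozyme of macrophages, rose from 646, 679 and 647 to 679, 799 and 821 CPM (0.22 ± 0.075, adjusted p = 0.308), and the first treated mouse lay within the veh-treated range. *Lgals3* (0.43) and *Igf1* (0.28) also passed. *Cd9*, a tetraspanin, fell from 579.6, 608 and 664 to 547, 542 and 536 CPM (-0.19 ± 0.057, adjusted p = 0.268). *Trem2*, the lipid receptor that this state requires, was at 852, 935 and 964 CPM in veh-treated and 779, 848 and 902 CPM in treated mice (-0.12 ± 0.076, adjusted p = 0.585). One member was upregulated without the third treated mouse, 2 without the second and 3 without the second veh-treated mouse, where also 3 fell. *Apoe* and *Lyz2* are also expressed by border macrophages, whose markers rose in the same mice.

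Interferon-stimulated genes rose in part. Of 57 tested members 43 lay above 0 with a median of 0.13. Of the 57, 10 were upregulated (17.5%, beside 6.55% of all genes) and 1 downregulated (1.75%, beside 4.83%). *Ifi203* rose from 11.9, 11.4 and 11.6 to 19.7, 23.2 and 21.6 CPM (0.88 ± 0.12, adjusted p = 0.0791), *Ifi207* from 23.97, 21.4 and 27.1 to 30.8, 41.96 and 41.2 CPM (adjusted p = 0.239) and *Mndal* from 7.12, 5.22 and 5.29 to 9.20, 12.7 and 10.1 CPM (adjusted p = 0.239). These genes, together with the upregulated *Ifi204*, *Ifi208* and *Ifi213*, belong to 1 cluster of near-identical DNA-sensing proteins on chromosome 1, and reads of one member may have been assigned to another, so that they are not 6 independent observations. Outside this cluster *Oas3*, *Ifitm3*, *Iigp1* and *Slfn5* passed with log2 fold changes of 0.91, 0.39, 0.69 and 0.37. Of these, only *Slfn5* did not overlap between the groups. The first treated mouse lay within the veh-treated range in *Oas3* (2.77 CPM beside 2.31 to 3.38), *Ifitm3* (37.7 beside 32.8 to 38.5) and *Iigp1* (5.73 beside 4.33 to 5.75). *Ifit1* and *Ifit2*, which type I interferon induces strongly, did not pass (0.050 ± 0.20 and 0.26 ± 0.28), and the RNA sensor *Ifih1* fell by 0.15. The second and the third treated mice were highest in this list, since 18 members were upregulated without the first treated mouse and 6 without the third, where the median of the list was -0.01.

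The response to interferon runs through an element in the promoter, searched here as a pair of GAAA tetramers with any 2 bases between them, on both strands, in the 300-base RefSeq promoters (GRCm38.p6, 250 bases before and 50 after the start). It was found in 3.99% of the promoters of 27025 genes, in 30 of the 44 tested members of the interferon list with a promoter in the table, and in all 8 upregulated members with one. These 8 include *Ifi203*, *Ifi207*, *Ifi208*, *Ifi213* and *Mndal* of the chromosome 1 cluster, so they are not 8 independent promoters. *Ifih1*, which fell, and *Ifit1*, which did not pass, hold the element too. The 150 bases before the start of the 2 upregulated members with the lowest p-values are shown, with the element in capitals.
Ifi203, chr1:173942493-173942642, minus strand: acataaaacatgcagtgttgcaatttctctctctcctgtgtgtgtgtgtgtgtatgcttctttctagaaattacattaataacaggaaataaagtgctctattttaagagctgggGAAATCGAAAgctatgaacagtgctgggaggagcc
Ifi207, chr1:173741810-173741959, minus strand: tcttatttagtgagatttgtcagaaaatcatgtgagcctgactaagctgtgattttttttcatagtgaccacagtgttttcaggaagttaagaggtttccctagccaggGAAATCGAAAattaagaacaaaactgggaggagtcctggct
The element begins 35 bases before the start of *Ifi203* and 41 bases before that of *Ifi207*. A match is a description of these letters and does not show that a factor binds there.

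Genes of MHC class II, through which macrophages and dendritic cells present peptides to CD4 T cells, were higher in all 3 treated mice. Of 10 tested members 5 were upregulated and none downregulated, with a median log2 fold change of 0.55 beside -0.0036 for all genes. *H2-Ab1* rose from 101, 114 and 131 to 182, 263 and 219 CPM (0.94 ± 0.24, adjusted p = 0.239). *H2-Aa* rose from 114, 126 and 156 to 207, 297 and 243 CPM (0.91 ± 0.26, adjusted p = 0.253), and *H2-Eb1* from 99.4, 107 and 132 to 174, 259 and 211 CPM (0.93 ± 0.26, adjusted p = 0.251). *Cd74*, the invariant chain that guides class II to the endosome, rose from 317, 335 and 376 to 493, 701 and 570.5 CPM (0.78 ± 0.21, adjusted p = 0.243). *Ciita*, the transactivator of these genes, passed with 0.88. The summed level was 900.9 to 1074 CPM in veh-treated and 1314 to 1808 CPM in treated mice and did not overlap, and 4 or 5 members were upregulated whichever mouse was left out. Of 19 class I genes none was up- and 1 downregulated (*Erap1*, -0.18 ± 0.060), and *H2-K1* changed by 0.094 ± 0.098.

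Class II promoters share the Y box, written here as GATTGG and searched on both strands. It was found in 18.2% of the promoters of all genes and in all 7 class II genes with a promoter in the table. The 2 upregulated ones are shown with the Y box, on either strand, in capitals.
H2-Eb1, chr17:34305717-34305866, plus strand: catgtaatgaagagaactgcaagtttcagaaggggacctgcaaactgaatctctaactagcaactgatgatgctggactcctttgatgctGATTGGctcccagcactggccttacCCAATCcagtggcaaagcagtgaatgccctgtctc
H2-Aa, chr17:34287824-34287973, minus strand: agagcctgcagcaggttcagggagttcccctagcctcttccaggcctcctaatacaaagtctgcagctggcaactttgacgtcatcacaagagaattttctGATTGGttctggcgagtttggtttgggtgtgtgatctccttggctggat
*H2-Eb1* holds 2 matches, which begin 60 and 35 bases before the start, and *H2-Aa* holds 1, which begins 49 bases before it.

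Inhibitory and paired receptors of myeloid cells were upregulated in 8 of 30 cases (26.7%, beside 6.55% of all genes). They were downregulated in 2 (6.67%, beside 4.83%), and the median log2 fold change was 0.05. The summed level of the list overlapped, with 5646 to 6135 CPM in veh-treated and 5250 to 5725 CPM in treated mice. *Lilrb4a* rose from 41.97, 34.9 and 37.5 to 61.9, 75.2 and 68.7 CPM (0.85 ± 0.13, adjusted p = 0.0848). Its near-identical neighbour *Lilr4b* rose from 27.5, 22.95 and 21.4 to 48.4, 50.97 and 55.2 CPM (1.11 ± 0.19, adjusted p = 0.151), and reads that both genes share may have been split between them. *Clec4a1*, a C-type lectin, rose from 13.01, 12.1 and 12.1 to 16.1, 22.1 and 18.8 CPM (adjusted p = 0.200). *Clec12a*, *Cd300ld*, *Cd300lb*, *Cd200r4* and *Pilra* also passed, with log2 fold changes of 0.29 (*Pilra*) to 0.70 (*Clec12a*). *Cd300a* and *Siglecf* fell, with log2 fold changes of -0.17 and -0.15. Without the first treated mouse 13 members were upregulated, and 6 without the third veh-treated or the third treated mouse.

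Toll-like receptors and their adaptors leaned down. Of 24 members 4 fell (16.7%, beside 4.83% of all genes) and 1 rose (4.17%, beside 6.55%), with a median of -0.07. Among genes of at least 100 CPM, 3.95% to 19.5% fell, by quintile of exon length. *Tlr9*, the receptor for unmethylated DNA, fell from 135, 133 and 151 to 110.5, 122 and 116 CPM (-0.27 ± 0.078, adjusted p = 0.253), and *Tlr7*, the receptor for single-stranded RNA, from 284, 299 and 300.2 to 254, 257 and 264 CPM (-0.19 ± 0.057, adjusted p = 0.268). The 2 groups did not overlap in either gene. *Ticam2* and *Ly86* fell, with log2 fold changes of -0.18 and -0.14, and *Tlr1* rose by 0.18 ± 0.075. With upper-quartile scaling 2 members rose and 2 fell, and 2 fell without the second or the third veh-treated or the first treated mouse.

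Of 30 cytokine and NF-κB feedback genes, 3 were upregulated (10.0%, near the 6.55% of all genes) and none downregulated, with a median of 0.00. *Ccl7* and *Ccl12*, chemokines that attract monocytes through *Ccr2*, rose from 18.1, 15.8 and 22.1 to 29.5, 42.02 and 26.4 CPM (0.81 ± 0.20, adjusted p = 0.239) and from 65.8, 55.3 and 69.4 to 74.8, 86.5 and 102 CPM (0.47 ± 0.15, adjusted p = 0.283). *Il10* was at 2.19, 1.25 and 2.24 CPM in veh-treated and 4.16, 4.11 and 4.01 CPM in treated mice (adjusted p = 0.428), and this call was lost whichever mouse was left out. *Il1a* and *Il1b*, the interleukin-1 cytokines, changed by -0.0058 ± 0.20 and 0.12 ± 0.22 and overlapped. Without the first treated mouse 6 members were upregulated, and 2 without the first or second veh-treated or the third treated mouse.

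Immediate early genes, which the isolation itself can induce, lay above 0 in 23 of 26 cases (median 0.20), and *Ier3*, *Dusp1* and *Nr4a1* passed while the groups overlapped in each. *Fos* was at 1026, 1713 and 1029 CPM in veh-treated and 1414, 1398 and 1826 CPM in treated mice (0.30 ± 0.23, adjusted p = 0.672). None passed without the third treated mouse, 1 without the first veh-treated mouse and 5 without the second. In the complement list *C4b* (0.58 ± 0.25), *Serping1* (0.87 ± 0.35) and *Cd55* (0.85 ± 0.36) were upregulated and *Itgb2* was among those downregulated, while *C1qa* and *C1qb*, the abundant microglial subunits of C1q, changed by -0.090 ± 0.083 and -0.10 ± 0.083 and did not pass. No complement gene was upregulated without the second veh-treated mouse, and 1 without the first veh-treated mouse or any treated one.

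Of 54 actin and migration genes 4 rose (7.41%, beside 6.55% of all genes) and 6 fell. *Iqgap1* was joined by *Itga4*, the α4 integrin of migrating leukocytes (16.6, 19.5 and 16.02 CPM in veh-treated and 22.6, 28.7 and 29.4 CPM in treated mice, 0.63 ± 0.12, adjusted p = 0.178), by *Iqgap2* (0.62) and by *Ezr*, a linker of membrane and actin that epithelia also use (29.4, 26.98 and 47.4 and 49.3, 65.6 and 75.04 CPM, 0.88 ± 0.22, adjusted p = 0.239). The members that fell were *Rock2*, *Dock2*, *Itga6*, *Cyfip1*, *Wasf2* and *Itgav*, with log2 fold changes between -0.18 (*Itga6*) and -0.10 (*Wasf2*). *Actb* changed by 0.003 ± 0.079. With upper-quartile scaling 6 of the 54 members rose and 3 fell, while 3 fell without the third veh-treated or the third treated mouse and 11 without the first veh-treated mouse.

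In the list of Bri2 relatives and amyloid-processing enzymes, *Ide* and *Ace* rose and others fell slightly. *Ace*, angiotensin-converting enzyme, was at 32.05, 30.96 and 97.5 CPM in veh-treated and 91.96, 95.6 and 145 CPM in treated mice (1.06 ± 0.40, adjusted p = 0.359). The third veh-treated mouse, which was also high in choroid plexus transcripts, lay within the treated range. *Adam10*, the main α-secretase, fell from 328, 339.5 and 339 to 313, 304 and 301 CPM (-0.13 ± 0.043, adjusted p = 0.289), *Adam17* from 224, 239 and 229.5 to 205, 209.9 and 205 CPM (adjusted p = 0.286) and *Sppl2a* from 227, 233 and 231 to 209.5, 209.8 and 209.7 CPM (adjusted p = 0.284). With upper-quartile scaling 3 of the 26 members rose, and *Adam17* and *Sppl2a* still fell. *Ide* was the only member upregulated without the first or second veh-treated or the third treated mouse. The endogenous *Itm2b* was at 2538, 2828 and 2726 CPM in veh-treated and 2542, 2714 and 2676 CPM in treated mice (-0.029 ± 0.060, adjusted p = 0.904), and *App* changed by 0.029 ± 0.16.

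Lysosomal genes (1 of 38 up, the proton pump subunit *Atp6v0c*, 0.38 ± 0.096, and 1 down, *Ppt1*, -0.14 ± 0.046), cholesterol synthesis genes (1 of 22 up, *Sqle*) and cell cycle genes (0 of 32 up and 2 down, *Mcm5*, -0.36 ± 0.11, and *Mcm4*) showed no more upregulated members than the background of 6.55%. The cell cycle list had a median log2 fold change of -0.16. *Mki67*, a marker of dividing cells, was at 13.5, 13.7 and 10.4 CPM in veh-treated and 8.88, 17.6 and 11.9 CPM in treated mice.

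Transcripts of border macrophages, which sit along vessels, in the meninges and in the choroid plexus, were higher after treatment. All 21 tested markers lay above 0, and 11 were upregulated (52.4%, beside 6.55% of all genes). In 14 markers all 3 treated mice lay above all 3 veh-treated mice, beside 8.36% of all genes. *Cd163*, a haemoglobin scavenger receptor, rose from 49.4, 45.4 and 55.6 to 69.9, 72.4 and 68.5 CPM (0.49 ± 0.12, adjusted p = 0.239). *Mrc1*, the mannose receptor, rose from 209, 199 and 234 to 305, 315 and 253 CPM (0.44 ± 0.14, adjusted p = 0.283), and *Lyve1*, a hyaluronan receptor, from 16.4, 14.2 and 14.01 to 23.5, 27.8 and 19.9 CPM (0.68 ± 0.16, adjusted p = 0.224). *Ccr1*, a chemokine receptor, rose from 9.45, 13.2 and 10.7 to 18.3, 25.5 and 24.7 CPM (1.04 ± 0.23, adjusted p = 0.214). The endocytic adaptor *Dab2* rose from 127, 109.9 and 142 to 176, 198 and 157 CPM (0.49 ± 0.13, adjusted p = 0.243). The summed level of the list was 1741 to 1894 CPM in veh-treated and 2100 to 2257 CPM in treated mice, and 9 to 11 members were upregulated whichever mouse was left out. In *App* NL-G-F mice the median of the list was 0.01, and the effect in WT mice was the larger one in 8 of 21 members (9.54% of all genes).

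Monocyte and dendritic cell markers rose as well, in 10 of 16 cases (62.5%, beside 6.55% of all genes) with a median of 1.06. *Vcan*, which is among the 10, is also counted as an oligodendrocyte precursor marker. Its first treated mouse lay within the veh-treated range (2.90 CPM beside 2.19 to 3.63). *Ccr2*, the receptor with which monocytes enter tissue, rose from 13.6, 12.99 and 12.1 to 20.3, 33.4 and 32.7 CPM (1.16 ± 0.19, adjusted p = 0.133). *Flt3*, a receptor of dendritic cells and their precursors, rose from 1.92, 1.42 and 1.49 to 2.20, 3.89 and 4.46 CPM (1.13 ± 0.29, adjusted p = 0.243), and *Napsa* from 5.27, 3.38 and 4.02 to 7.75, 8.45 and 10.5 CPM (1.07 ± 0.23, adjusted p = 0.200). *Ly6c2*, which defines inflammatory monocytes, was at 4.59, 3.74 and 0.447 CPM in veh-treated and 2.27, 3.15 and 5.32 CPM in treated mice and overlapped. The summed level was 274.8 to 289.2 CPM in veh-treated and 305.2 to 387.0 CPM in treated mice, and 6 members were upregulated without the third treated mouse. MHC class II genes, *Apoe*, *Lyz2*, *Lilrb4a* and *Clec4a1* are expressed by these cells and by border macrophages too, and the part of these cells in their rise was not tested.

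**Figure D4:**
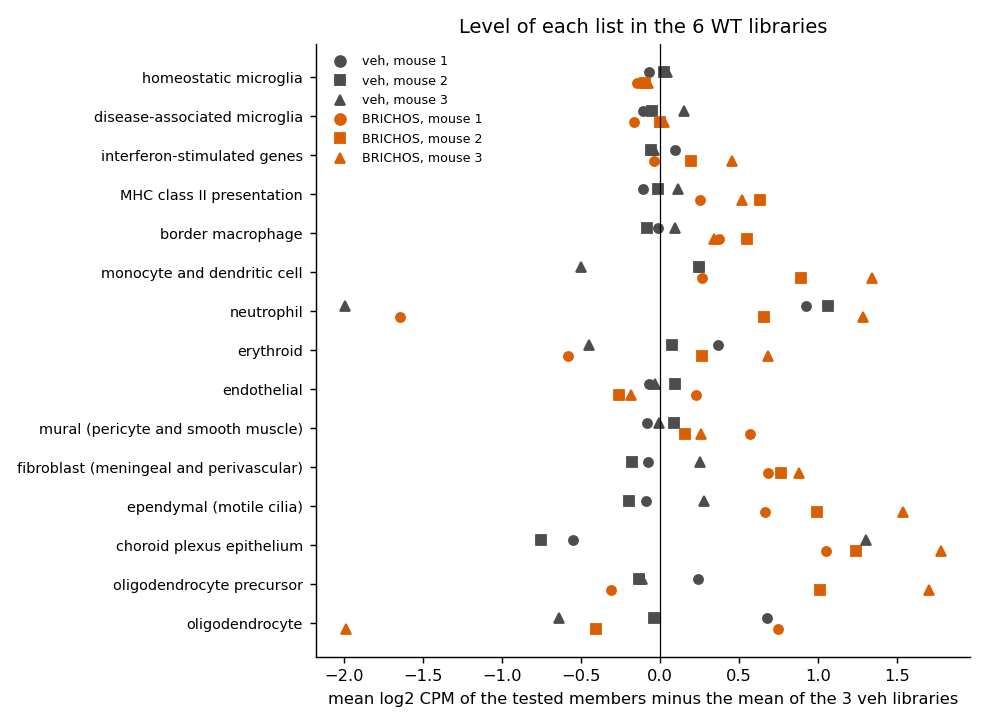
For 15 lists, each symbol is 1 WT mouse (grey, veh; orange, rh Bri2 BRICHOS R221E; circle, square and triangle, mice 1 to 3), placed at the mean log2 CPM of the tested members minus the mean of the veh-treated mice. Ependymal, fibroblast, border macrophage and MHC class II lists are higher in all 3 treated mice, the choroid plexus list separates the third veh-treated mouse from the other two, and neutrophil and oligodendrocyte lists vary widely within both groups.

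Ependymal transcripts were higher in all 3 treated mice. These cells line the ventricles and carry bundles of motile cilia, whose axonemes are built from dyneins and radial spokes. Of 64 listed genes 55 passed the filter on low counts, with a median log2 fold change of 1.15. Of these 55, 37 were upregulated (67.3%, beside 6.55% of all genes) and none was downregulated. In 30 members all 3 treated mice lay above all 3 veh-treated mice, beside 8.36% of all genes. The regulator of motile ciliogenesis *Foxj1* rose from 9.04, 6.41 and 10.6 to 14.2, 17.01 and 22.9 CPM (1.06 ± 0.26, adjusted p = 0.239). The axonemal dynein *Dnah6* rose from 2.47, 2.08 and 3.65 to 5.79, 6.87 and 9.33 CPM (1.43 ± 0.30, adjusted p = 0.196), and the cilia- and flagella-associated genes *Cfap46* and *Cfap65* rose from 0.548, 0.415 and 0.149 to 1.45, 1.86 and 1.83 CPM and from 2.40, 1.13 and 4.17 to 6.11, 7.88 and 15.6 CPM. *Ccdc153* was at 1.30, 0.890 and 0.0745 CPM in veh-treated and 1.26, 4.34 and 5.38 CPM in treated mice, where the first treated mouse lay within the veh-treated range. The summed level was 79.0 to 126.2 CPM in veh-treated and 154.1 to 270.4 CPM in treated mice, so that the transcripts of the whole list remained a small share of each library. The third treated mouse was highest, and 20 members were upregulated without it. In *App* NL-G-F mice 8 of 55 members were downregulated with a median of -0.28, where 7.67% of all genes were down- and 3.18% upregulated. The effect in WT mice was the larger one in 29 of 55 members, beside 9.54% of all genes.

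Ciliary genes are controlled by RFX factors through the X-box, whose half-site is written here as GTTGCCA and was searched on both strands. It was found in 5.03% of the promoters of all genes, in 11 of the 45 tested ependymal members with a promoter in the table and in 9 of 30 upregulated ones. The 2 of these with the lowest p-values that hold it in the 150 bases before the start are shown, with the half-site in capitals.
Cfap44, chr16:44394649-44394798, plus strand: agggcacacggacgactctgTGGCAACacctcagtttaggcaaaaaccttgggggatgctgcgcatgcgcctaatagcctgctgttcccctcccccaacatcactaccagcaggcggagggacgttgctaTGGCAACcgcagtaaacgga
Iqca, chr1:90153437-90153586, minus strand: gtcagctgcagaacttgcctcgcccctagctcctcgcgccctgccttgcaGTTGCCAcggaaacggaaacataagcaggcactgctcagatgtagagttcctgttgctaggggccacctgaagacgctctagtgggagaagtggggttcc
*Cfap44* holds 2 half-sites, which begin 130 and 20 bases before the start, and *Iqca* holds 1, which begins 100 bases before it. Both were chosen after their values were seen. *Cfap44* rose from 1.10, 1.36 and 3.43 to 3.59, 4.34 and 7.73 CPM and *Iqca* from 0.205, 0.474 and 0.298 to 0.567, 1.13 and 2.35 CPM.

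Choroid plexus epithelium, which secretes cerebrospinal fluid, showed higher levels in the treated mice, with 1 veh-treated mouse among them. All 30 markers lay above 0 and 11 were upregulated (36.7%, beside 6.55% of all genes), but in no member were the groups separate. *Ttr*, transthyretin, the main secreted protein of this epithelium, was at 841, 802 and 3679 CPM in veh-treated and 3051, 3764 and 6415 CPM in treated mice (1.31 ± 0.58, adjusted p = 0.424). *Folr1*, the folate receptor, was at 5.89, 4.92 and 22.4 CPM and 18.9, 26.6 and 40.6 CPM (1.39 ± 0.53, adjusted p = 0.372), and *Trpv4*, an osmosensitive channel, at 21.6, 18.4 and 29.2 CPM and 29.1, 32.6 and 42.1 CPM (0.59 ± 0.20, adjusted p = 0.311). The third veh-treated mouse reached the treated range in *Ttr* and *Folr1*, and the summed list was 1551, 1762 and 6239 CPM in veh-treated and 5585, 6230 and 10037 CPM in treated mice. The count rested on single mice and on the fit, as 3 members were upregulated with edgeR and 1 with DESeq2 on the 6 WT libraries alone. In the fit of all libraries 29 members were upregulated without the third veh-treated mouse, 12 without the first treated mouse, 7 without the second, 1 without the first veh-treated mouse and 0 without the second veh-treated or the third treated mouse.

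Meningeal and perivascular fibroblast markers were upregulated in 17 of 28 tested cases (60.7%, beside 6.55% of all genes), and these 17 included collagens and their partners. *Col1a2*, a chain of type I collagen, rose from 3.22, 4.39 and 5.81 to 9.39, 12.1 and 13.9 CPM (1.40 ± 0.28, adjusted p = 0.190), *Col1a1* from 0.822, 1.25 and 0.894 to 2.96, 1.41 and 4.01 CPM (adjusted p = 0.352), *Slc47a1* from 0.411, 0.415 and 1.04 to 2.20, 5.24 and 2.92 CPM (2.49 ± 0.54, adjusted p = 0.200) and *Igfbp6* from 0.548, 0.534 and 1.12 to 1.70, 2.08 and 2.18 CPM (adjusted p = 0.214). None of the 4 overlapped between the groups. The median of the list was 0.82, and 10 members were upregulated without the second and 11 without the first veh-treated mouse. The summed level overlapped, with 670.3, 431 and 384 CPM in veh-treated and 779.9, 459 and 425 CPM in treated mice, and the first veh-treated mouse lay above 2 of the treated ones. In *App* NL-G-F mice 12 of 28 members were downregulated (7.67% of all genes), with a median of -0.53.

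Endothelial and mural markers differed. None of 30 endothelial markers was up- or downregulated, with a median of -0.09, although 6 fell without the first treated mouse, and *Cldn5*, a tight junction protein, was at 80.9, 102 and 77.9 CPM in veh-treated and 99.7, 67.2 and 64.7 CPM in treated mice. *Flt1*, a VEGF receptor, was at 234, 257 and 221 CPM and 269, 194 and 178 CPM. Of 21 mural markers 4 were upregulated (19.0%, beside 6.55% of all genes), with a median of 0.41. On the 6 WT libraries alone 11 were upregulated with edgeR and 10 with DESeq2. *Cald1*, an actin-binding protein of contractile cells, rose from 27.8, 26.2 and 27.3 to 36.97, 34.1 and 37.2 CPM (0.41 ± 0.077, adjusted p = 0.178). *Tagln*, another smooth muscle protein, rose from 7.46, 8.54 and 9.02 to 13.4, 10.5 and 14.996 CPM (0.63 ± 0.27, adjusted p = 0.403), and *Cspg4* and *Anpep* also passed. The pericyte markers *Rgs5* and *Pdgfrb* were at 86.8, 101 and 92.1 and 18.8, 17.4 and 18.6 CPM in veh-treated and 142, 111 and 112 and 28.8, 21.5 and 21.5 CPM in treated mice and did not pass (adjusted p = 0.520 and 0.555), although their groups did not overlap. The summed mural level was 359.4 to 380.2 CPM in veh-treated and 406.2 to 553.1 CPM in treated mice.

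Erythroid and neutrophil transcripts varied widely between the mice of each group. None of 8 erythroid genes passed, and the haemoglobin gene *Hba-a1* was at 39.2, 33.3 and 17.4 CPM in veh-treated and 13.5, 34.6 and 52.3 CPM in treated mice. *Hba-a1* and *Hba-a2* have near-identical coding sequences. The neutrophil genes *S100a8* and *S100a9* were at 91.7, 74.9 and 10.9 and 146, 122 and 17.8 CPM in veh-treated and 21.7, 63.4 and 105 and 38.3, 111 and 171 CPM in treated mice, lowest in the third veh-treated and the first treated mouse. *Cxcr2* and *Stfa2l1* were the 2 of 17 neutrophil genes that rose, and neither rose without the third treated mouse. *Cxcr2* was at 5.27, 4.69 and 4.10 CPM and 4.66, 11.4 and 15.6 CPM (1.17 ± 0.37, adjusted p = 0.281), and the first treated mouse lay within the veh-treated range. Of 6 platelet genes *Pf4*, which border macrophages also express, rose (0.51 ± 0.16), while *Gp9* changed by -0.021 ± 0.16. *Ppbp* had 0 to 7 counts in veh-treated and 6 to 19 in treated mice and was not tested.

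Lymphocyte transcripts were rare and partly higher. Of 11 tested B cell genes 4 rose (36.4%, beside 6.55% of all genes), with a median of 0.84. *Jchain*, the joining chain of secreted antibodies, was at 0.0685, 0.119 and 0.224 CPM in veh-treated mice and rose to 0.630, 1.24 and 1.09 CPM. *Igkc*, the κ light chain, rose from 0.685, 3.20 and 1.27 to 3.59, 14.1 and 4.87 CPM. *Cd79b*, which microglia also express, changed by -0.13 ± 0.14. Without the second veh-treated mouse 7 B cell genes were upregulated. Of 11 tested T and natural killer cell genes *Gzmb*, *Nkg7* and *Cd4* rose and *Il7r* fell, and 2 rose without the second veh-treated or the first or the third treated mouse. *Gzmb*, a granzyme, rose from 0.548, 0.534 and 0.298 to 1.26, 1.24 and 1.72 CPM, and *Nkg7* from 0.548, 0.415 and 0.522 to 1.07, 0.957 and 1.14 CPM. The T cell receptor chains *Cd3d* and *Cd3e* had at most 1 and 5 counts in any WT library and were not tested. Neither of the 2 tested mast cell genes passed.

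Glia and neurons differed among themselves. Oligodendrocyte precursor genes rose in 6 of 10 cases with a median of 1.09, chiefly in the second and the third treated mouse. *Pdgfra*, their defining growth factor receptor, was at 2.88, 2.31 and 4.84 CPM in veh-treated and 2.83, 11.5 and 28.6 CPM in treated mice (2.11 ± 0.61, adjusted p = 0.262), and *Matn4* at 1.03, 1.19 and 0.969 and 1.39, 3.27 and 5.90 CPM. In the absence of the third treated mouse 3 members were upregulated. *Vcan* and *Cspg4*, which are among the 6, are also counted in the monocyte and dendritic cell list and in the mural list, respectively. Mature oligodendrocyte genes did not pass in any of 20 cases (median -0.24, which was 0.23 without the first veh-treated mouse, 0.21 without the third treated mouse and -1.14 without the first treated mouse). *Mbp*, a myelin protein, was at 7069, 10718 and 5981 CPM in veh-treated and 8209, 3548 and 2644 CPM in treated mice, so that the first and the third treated mouse differed more than the groups. Of 21 astrocyte genes *Sox9* and *Slc7a10* rose and *S100b* fell (none passed without the third treated mouse, and 5 rose without the first), while *Aqp4* and *Gfap* did not pass (0.37 ± 0.47 and -0.27 ± 0.40). *Clu*, which astrocytes express strongly, was at 129, 124 and 190.3 CPM and 164, 240.2 and 327 CPM (0.72 ± 0.41, adjusted p = 0.541), and *Igfbp5* and *Prdx6* changed by 0.57 ± 0.28 and 0.28 ± 0.22 and did not pass. No neuronal gene of 18 passed (median 0.25).

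Most downregulated genes changed by small amounts, with 16 of 745 at a log2 fold change of -1 or lower and the lowest at -5.94. The 12 with the lowest p-values and no overlap between the groups had log2 fold changes between -0.35 (*Lonrf3*) and -0.18 (*Rnf167*). *Map3k2*, a kinase upstream of JNK and ERK5, fell from 94.6, 90.6 and 91.1 to 77.5, 76.3 and 77.3 CPM (-0.26 ± 0.042, adjusted p = 0.133). *Kcnk6*, a two-pore potassium channel, fell from 229, 224 and 247 to 193, 186 and 192 CPM (-0.29 ± 0.059, adjusted p = 0.190), and *Rassf4* from 166, 181 and 170.1 to 139, 148 and 145 CPM (-0.26 ± 0.051, adjusted p = 0.190). *Smcr8*, a partner of C9orf72 in autophagy, fell from 109.8, 112 and 105 to 96.2, 84.8 and 87.97 CPM (adjusted p = 0.190). *Med13*, a subunit of the Mediator kinase module, fell from 135, 137 and 134 to 118, 119.7 and 113 CPM (adjusted p = 0.196), and the adhesion molecule *Cadm1* from 146, 149 and 153 to 127, 129 and 129 CPM (adjusted p = 0.200). *Anks1*, *Uhrf1bp1*, *Fam117b*, *Sufu*, the repressor of Hedgehog signalling, and *Lonrf3* complete the 12.

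Among abundant genes, long ones were downregulated more often than short ones. When genes of at least 100 CPM were sorted by the length of their exons into quintiles, a split chosen after the values were seen, 15, 50, 51, 71 and 74 were downregulated from the shortest to the longest quintile (3.95%, 13.2%, 13.4%, 18.7% and 19.5% of 379 to 381 genes each), and 21, 11, 7, 3 and 3 were upregulated. The mean of the longest quintile, relative to the veh-treated mice on the log2 scale, was -0.026, -0.087 and -0.125 in the 3 treated mice, and that of the shortest quintile was -0.071, 0.043 and 0.062. The part of transcript length or RNA quality in the small decreases was not tested.

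The effect of rh Bri2 BRICHOS R221E in WT mice was set beside that of the *App* NL-G-F strain, with which it shares no library. Of the 1010 genes upregulated in WT mice, 19 were up- and 180 downregulated in the *App* NL-G-F strain, with a median of -0.16. These shares were 1.88% and 17.8%, beside 3.18% and 7.67% of all genes tested. In 594 the effect in WT mice was the larger at an unadjusted p-value under 0.05. Over all genes tested this was so in 1472 (9.54%), and the effect in WT mice was the smaller one in 807 (5.23%). The genes called in WT mice were chosen for a high or low effect there, so a larger share among them follows in part from that choice. Of the 745 genes downregulated in WT mice, 29 were up- and 14 downregulated in the *App* NL-G-F strain (3.89% and 1.88%), with a median of 0.03.

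Several lists of other cell types had medians of opposite sign in the 2 strains. The 105 that rose in WT mice had a median of -0.38 in *App* NL-G-F mice, where 1 was up- and 18 downregulated. The astrocyte list had a median of 0.61 in the WT and -1.36 in the *App* NL-G-F strain. At the unadjusted threshold the effect in WT mice was the larger one in 18 of the 21 members of this list, beside 9.54% of all genes. Its summed level varied widely in the *App* NL-G-F strain, with 6992, 6254 and 2315 CPM in veh-treated and 2988, 1114 and 2020.0 CPM in treated mice. The choroid plexus list had medians of 1.08 and -0.57, and the effect in WT mice was the larger one in 15 of 30 members. In contrast, the 45 upregulated genes that were on microglial lists alone had a median of 0.11 in *App* NL-G-F mice, and 1 was up- and 2 downregulated. MHC class II genes had medians of 0.55 and 0.31, and the effect differed between the strains in none of 10 at the unadjusted threshold. Over all genes the effect was larger in WT mice in 9.54% and smaller in 5.23%. In a list of 10, none is close to these shares and does not show an equal effect in the 2 strains. For *H2-Ab1*, for example, the difference of the effects was 0.59 (adjusted p = 0.426, edgeR). At an adjusted p-value under 0.05 (edgeR), the treatment effect differed between the strains in 1 gene, *Cald1*. With treatment *Cald1* rose by 0.41 in WT and fell by 0.71 in *App* NL-G-F mice on the log2 scale (difference 1.12, adjusted p = 0.00834).

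**Figure D5:**
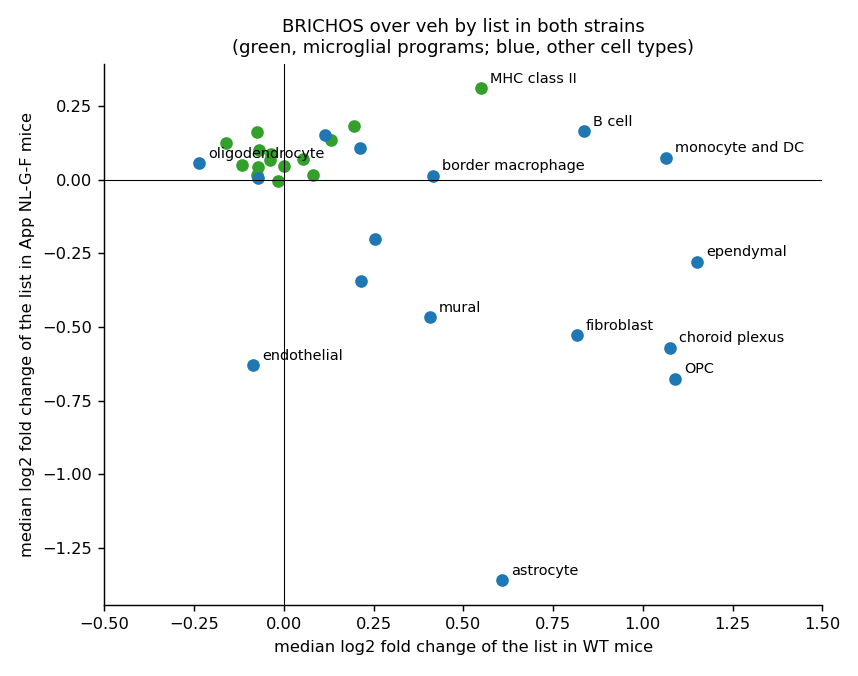
Each point is a list with at least 6 tested members (green, microglial programs; blue, other cell types), with its median log2 fold change of rh Bri2 BRICHOS R221E over veh in WT mice on the horizontal axis and in *App* NL-G-F mice on the vertical axis. Ependymal, choroid plexus, fibroblast, mural and astrocyte lists lie to the right of 0 and below it, the astrocyte list lowest at -1.36, while border macrophage, monocyte and MHC class II lists lie to the right of 0 and at or above it.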

How the data were processed

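Per the labels and the study's methods, the authors isolated CD11b-positive cells from mouse cortex, made poly(A) libraries, aligned the reads to the mouse genome with STAR and deposited 1 table of raw counts per Ensembl gene made with featureCounts. The strand setting of the counting is not given in the sources used here. No column of fold changes or p-values was used.

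From these deposited counts, genes were kept with filterByExpr (minimum count of 10), normalised by TMM and tested with edgeR 4.0.16 (R 4.3.3, quasi-likelihood F-test, 4 group means, all 12 libraries). The contrasts were treatment in WT mice and its difference from that in *App* NL-G-F mice, at an unadjusted p-value of 0.05 and with Benjamini-Hochberg adjustment, without the minimum fold change that the methods of the study add. The fit was tested on simulated data. CPM are TMM-normalised. DESeq2 1.42.0, other scalings and filters, a block for the replicate number and each WT mouse left out in turn were alternatives. p-values and SEs rest on the spread between mice within a group, estimated over all 4 groups of 3 together, *App* NL-G-F mice included. Totals per WT library were 12433402 to 16188832 counts, and their precision is counting error only.

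The members and lists were chosen with earlier results of these data known. Of 806 list symbols 2 were not found in the table. Named genes were the 12 up- and 12 downregulated genes with the lowest p-value without overlap between groups, the 6 in each direction at 100 CPM or more, and in each list the first 2 members and up to 3 in each direction with the lowest p-value. A few list members are not reported here.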

Additional observations from a re-analysis of the deposited data

Results flagged for a closer look

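*Cald1*, an actin-binding protein listed among the mural markers, was the 1 gene whose effect of rh Bri2 BRICHOS R221E in WT mice differed from that in *App* NL-G-F mice at an adjusted p-value under 0.05. The difference of the effects was 1.12 on the log2 scale (adjusted p = 0.00834, edgeR's quasi-likelihood test), and with a block for the replicate number the adjusted p-value was 0.0399. All 3 treated WT mice lay above all 3 veh-treated WT mice. The treatment effect differed between the strains in the same direction in 9 of the 21 tested mural markers at the unadjusted threshold. Over all genes the share was 9.54%. Fibroblast (18 of 28) and astrocyte markers (18 of 21) differed in this direction as well, and none of 20 oligodendrocyte markers did.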

How the results depend on the processing

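The count of genes at an adjusted p-value under 0.05, 0 with edgeR, was 80 with DESeq2 on 12 libraries, 134 with DESeq2 on the 6 WT libraries and 12 without the filter on low counts. The 745 downregulated genes became 436 with DESeq2 on the 6 WT libraries, 347 with upper-quartile scaling and 16 with a log2 fold change of at least 1, where 376 were upregulated. Downregulated markers of other cells (2) were 1 with DESeq2 or edgeR on the 6 WT libraries and with upper-quartile scaling, 4 without the filter and 0 at a log2 fold change of at least 1. Downregulated genes of microglial lists (29) were 12 with upper-quartile scaling and 0 at a log2 fold change of at least 1, where 3 were upregulated. Without single mice, 561 to 1325 genes were up- and 439 to 960 downregulated with 0 to 5 at the adjusted threshold, 62 to 122 markers of other cells were up- and 0 to 9 downregulated, and 28 to 66 genes of microglial lists were up- and 17 to 43 downregulated. Without the third treated mouse the 561 upregulated genes shared 487 with the 1010. Causes were not tested. The labels number mice 1 to 3 in both groups but do not say that a number marks a shared litter or day. Deviations of same-numbered mice correlated at 0.142, 0.0599 and 0.227, and every WT mouse except the second treated one correlated best with its own number in the other group, a hint from the data and not from the design. With a replicate block 1187 genes were up- and 901 downregulated, 0 at the adjusted threshold, and 52 genes of microglial lists were downregulated. Under the block 29 of 30 choroid plexus genes passed, beside 3 with edgeR and 1 with DESeq2 on the 6 WT libraries. Of 20 homeostatic genes 12 passed under the block, beside 10 with DESeq2 on the 6 WT libraries. The treatment effect differed between the strains in 1 gene at the adjusted threshold under the block. Of the genes that passed among those chosen by the rules for named genes, 39 of 112 lost the call in at least 1 alternative. A fold change of genes with fewer than 3 counts in a library rests on few reads.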

Other observations

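Transcripts of the mitochondrial genome are a group chosen after the values were seen. Of 8 tested mRNAs 7 lay above 0, 3 were upregulated and 0 downregulated, with a median log2 fold change of 0.18 and a range of -0.39 to 0.45. *mt-Nd5*, a subunit of respiratory complex I, rose from 1202, 1243 and 1317 to 1493, 1973 and 1688 CPM (adjusted p = 0.214), and its change in *App* NL-G-F mice was -0.036. *mt-Cytb* and *mt-Nd4* rose by 0.26 and 0.17. The mitochondrial share of the counts was 1.62% to 1.88% in veh-treated and 1.86% to 2.06% in treated WT mice, and the groups overlapped.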
